A study of Homo sapiens with 6 samples.

Results

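Annexins are a family of calcium-dependent phospholipid-binding proteins. RNA-seq values were examined here for 9 annexin genes, ANXA1, ANXA2, ANXA3, ANXA4, ANXA5, ANXA6, ANXA7, ANXA9 and ANXA11, chosen by gene symbol from the 21494 genes of the deposited count table. The samples are labelled as G361 cells, a human melanoma line, with 3 Control sh samples of genotype WT, which carried a nontargeting shRNA, and 3 VprBP sh samples of genotype DCAF1 Knockdown, DCAF1 being the gene that encodes VprBP. According to the methods of the study, the knockdown cells stably carried 1 lentiviral pLKO.1 shRNA directed at the VprBP coding region and had been selected with puromycin, so that no independent shRNA was available for comparison. The source field of all 6 labels reads LD611 rather than G361, and nothing in the labels states that the replicates were separate cultures, so the p-values below measure the spread between these samples, which may be technical.

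In most annexins, a conserved core of repeats binds the headgroups of acidic phospholipids through bridging calcium ions, which brings the protein to the inner face of the plasma membrane and to endosomes when calcium rises. The N-terminal tail differs between members and recruits partners, among them the EF-hand proteins S100A10 and S100A11 and the penta-EF-hand proteins PDCD6 and SRI. The family is known for roles in vesicle trafficking, plasma membrane repair, the organisation of cortical actin and, for secreted annexins, the control of inflammation.

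The libraries held 18195926 to 26883925 counts in total, and 3 counts in a library corresponded to 2.30 to 3.48 normalized counts. DCAF1 itself was at 797, 971 and 838 normalized counts in Control sh versus 760, 507 and 481 in VprBP sh, a log2 fold change of -0.58 ± 0.17 (SE, edgeR quasi-likelihood test, Benjamini-Hochberg adjusted p = 0.0125), with VprBP sh replicate 1 only slightly below the Control sh range. In both groups replicate 1 stood apart from replicates 2 and 3. The labelled melanoma identity was checked against 10 melanocytic markers, of which TYR, DCT, SOX10 and S100B had no entry in the deposited count table. The 6 with an entry summed to 677 to 699 normalized counts in Control sh versus 619 to 669 in VprBP sh. None of the 4 tested was called, beside 46.4% of all genes tested. The pigment-cell antigens MLANA and TYRP1 reached at most 5 counts in any library, PMEL had 28 to 46 and GPR143 32 to 107, while MITF, the lineage transcription factor, had 154 to 312 counts and RAB27A, a melanosome transport GTPase, 245 to 479. Among 10 urothelial markers, KRT20 and UPK3A likewise had no entry. Of the 8 in the count table, 7 were tested. Of these, 2 were called higher and 4 lower, beside 24.5% and 22.0% of all genes tested. The sum of the 8 was 103912 to 113556 normalized counts in Control sh versus 25098 to 28548 in VprBP sh. The basal genes KRT5 and TP63 were called lower, and KRT5 was at 55855 to 69862 normalized counts in Control sh versus 2683 to 5051 in VprBP sh. The luminal markers went both ways. GATA3, a transcription factor, was at 0 to 8.11 normalized counts in Control sh versus 1386 to 1764 in VprBP sh. PPARG was also called higher (log2 fold change 1.39), UPK2, a uroplakin, was called lower (-2.25), and UPK1B, another uroplakin, was called lower with 580 to 697 normalized counts in Control sh but 0 in every VprBP sh library. The remaining tested gene, KRT7, was not called (-0.70). The share of mitochondrial transcripts was 1.96 to 1.98% in Control sh versus 4.10 to 4.48% in VprBP sh. The part of these differences in the annexin values was not tested.

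The annexins did not move as a block. Of the 9, ANXA1, ANXA2 and ANXA3 fell in VprBP sh, ANXA6 and ANXA9 rose, and ANXA4, ANXA5, ANXA7 and ANXA11 were not called, a call being an adjusted p under 0.05 with a fold change over 2. All 9 passed the filter on low counts. The 5 calls among 9 annexins stand beside 46.4% of the 16756 genes tested, the 3 lower calls beside 22.0% and the 2 higher calls beside 24.5%. At any fold change 8 of 9 annexins had an adjusted p under 0.05, beside 76.4% of all genes, and in 8 of 9 the samples of the groups did not overlap, beside 79.5% of all genes. The median log2 fold change was 0.12 over the 9 annexins and 0.08 over all genes tested. The median absolute log2 fold change was 1.46 over the 9 annexins and 0.92 over all genes. These medians leave out ANXA8, ANXA8L1 and ANXA10, which were tested, were each lower in VprBP sh and are given below. In such bulk samples fewer cells of a type and less RNA per cell cannot be told apart.

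**Figure D1:**
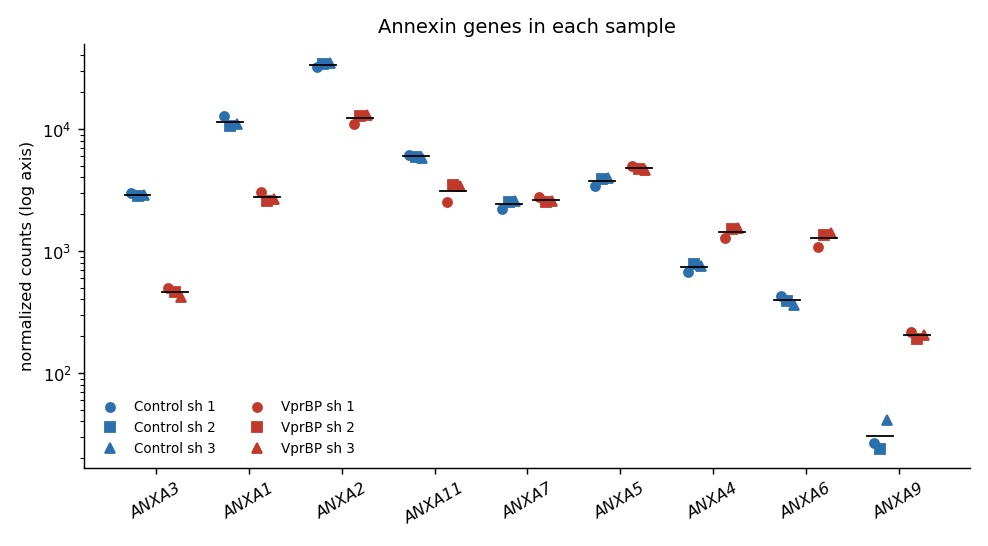
Normalized counts of the 9 annexins (log axis) in each of the 6 samples, with points for samples and lines for group means. The Control sh and VprBP sh points overlap only for ANXA7, and the ANXA2 points run from 10991 to 34545 (counts are not divided by length here).

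The promoter-side sequences of the 5 annexins that were called are shown because these genes moved in opposite directions, which allows their starts to be read against each other. Each is the 250 bases directly upstream of the RefSeq start on GRCh38.p14, written 5′ to 3′ on the strand of the gene. The windows lie at chr9:73151615-73151864 on the plus strand for ANXA1, chr15:60397987-60398236 on the minus strand for ANXA2, chr4:78551520-78551769 on the plus strand for ANXA3, chr5:151157780-151158029 on the minus strand for ANXA6 and chr1:150982042-150982291 on the plus strand for ANXA9. Capitals mark every match, on either strand, to TATAAA of the TATA box, to CCAAT of the CCAAT box, to GGGCGG of the GC box, to TGANTCA of AP-1 factors, to CACGTG of the E-box and to GGAATG of TEAD factors.
ANXA1: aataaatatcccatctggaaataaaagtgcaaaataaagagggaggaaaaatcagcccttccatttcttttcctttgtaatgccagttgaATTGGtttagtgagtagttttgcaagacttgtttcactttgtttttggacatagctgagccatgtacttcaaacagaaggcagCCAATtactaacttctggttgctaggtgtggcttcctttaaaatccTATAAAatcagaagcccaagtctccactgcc
ANXA2: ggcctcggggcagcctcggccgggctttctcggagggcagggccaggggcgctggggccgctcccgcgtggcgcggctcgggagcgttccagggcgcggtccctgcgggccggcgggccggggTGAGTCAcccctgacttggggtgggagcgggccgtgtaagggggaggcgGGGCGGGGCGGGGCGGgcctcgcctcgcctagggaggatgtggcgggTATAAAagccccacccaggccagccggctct
ANXA3: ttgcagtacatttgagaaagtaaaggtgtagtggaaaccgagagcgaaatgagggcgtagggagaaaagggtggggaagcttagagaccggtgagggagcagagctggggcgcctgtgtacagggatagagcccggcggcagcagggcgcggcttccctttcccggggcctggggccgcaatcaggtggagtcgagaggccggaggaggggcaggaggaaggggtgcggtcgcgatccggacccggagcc
ANXA6: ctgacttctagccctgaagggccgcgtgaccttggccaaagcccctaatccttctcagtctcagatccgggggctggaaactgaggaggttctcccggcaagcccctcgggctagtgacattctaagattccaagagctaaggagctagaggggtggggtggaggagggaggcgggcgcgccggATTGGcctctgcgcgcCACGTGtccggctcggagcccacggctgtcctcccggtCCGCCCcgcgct
ANXA9: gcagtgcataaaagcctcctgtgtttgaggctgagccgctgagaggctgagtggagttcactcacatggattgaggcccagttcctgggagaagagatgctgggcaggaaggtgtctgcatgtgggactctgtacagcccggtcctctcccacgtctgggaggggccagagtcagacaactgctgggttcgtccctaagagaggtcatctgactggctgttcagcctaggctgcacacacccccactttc

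ANXA1 and ANXA2, both lower in VprBP sh, each held TATAAA with its first base at -31, where -1 is the base before the start. TATAAA was found in 10.7% of the 35116 RefSeq windows of this length. These 2 windows were otherwise unlike, with 38.4% GC and 0 CpG dinucleotides for ANXA1 and 78% GC and 28 CpG for ANXA2, against medians of 58% GC and 11 CpG over all windows. ANXA1 also held CCAAT at -160 and -77 (32.0% of all windows have it). ANXA2 held TGANTCA at -127 (6.57% of all windows) and 3 GGGCGG matches at -78, -73 and -68 that overlap each other by their end bases (42.6% of all windows hold GGGCGG). ANXA3, also lower, held none of the 6 motifs in a window of 64% GC and 18 CpG. Of the annexins that rose, ANXA6 held CCAAT at -66, CACGTG at -50 (6.34% of all windows) and GGGCGG at -12, while ANXA9 held none in a window of 58% GC and 4 CpG. GGAATG, present in 11.9% of all windows, was not found in the windows of any of the 9 annexins. A match describes letters in a window and is not evidence of binding. Whether the matches go with the direction of change was not tested.

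ANXA1 (ENSG00000135046.14, hg38 chromosome 9, 73151865 to 73170393, plus strand, 13 exons in its canonical transcript) encodes annexin A1, a glucocorticoid-regulated protein that restrains phospholipase A2 and, once secreted, signals through formyl peptide receptors. Its normalized counts were 12826, 10671 and 10899 in Control sh versus 3059, 2561 and 2679 in VprBP sh. Every VprBP sh sample lay far below every Control sh sample. The group means were 11465 ± 1184 and 2767 ± 260 (SD, n = 3 each), a log2 fold change of -2.05 ± 0.11 (SE), or 4.14-fold lower (edgeR adjusted p = 1.28e-07). S100A11, its EF-hand partner, was itself called lower, with 13340 to 13506 normalized counts in Control sh versus 4494 to 5542 in VprBP sh (log2 fold change -1.39 ± 0.09 SE, edgeR adjusted p = 7.43e-07).

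ANXA2 (ENSG00000182718.18, chromosome 15, 60347134 to 60402883, minus strand, 13 exons) encodes the annexin that forms a heterotetramer with S100A10, which links membranes to actin and binds plasminogen at the cell surface. It had 32250, 33905 and 34545 normalized counts in Control sh versus 10991, 12655 and 13029 in VprBP sh. The groups were well apart, with VprBP sh replicate 1 the lowest of all 6. The means of 33567 ± 1184 and 12225 ± 1085 (SD, n = 3 each) gave a log2 fold change of -1.46 ± 0.09 (SE), 2.75-fold lower (edgeR adjusted p = 4.09e-07). S100A10 fell as well, from 8366 to 8755 normalized counts across Control sh samples to 3715 to 3823 across VprBP sh samples (log2 fold change -1.18 ± 0.07 SE, edgeR adjusted p = 3.66e-07). Within samples, S100A10 counts amounted to 25.5% ± 0.40 of ANXA2 counts in Control sh versus 31.0% ± 3.29 in VprBP sh (SD, n = 3 each). ANXA2 has processed pseudogenes, and 38.2% of the 1505 distinct 50-base words of its canonical transcript, the read length used, also occur in ANXA2P2, so part of its reads could be assigned to either. The counts of ANXA2P2 were 185, 253 and 282 in Control sh versus 71, 83 and 162 in VprBP sh, equal to 0.665, 0.811 and 0.774% of the ANXA2 counts in Control sh libraries and 0.721, 0.682 and 0.953% in those of VprBP sh, and these shares overlapped between the groups.

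ANXA3 (ENSG00000138772.13, chromosome 4, 78551747 to 78610451, plus strand, 13 exons) encodes an annexin studied in neutrophils. It showed 2958, 2815 and 2856 normalized counts in Control sh versus 500, 461 and 423 in VprBP sh. Both groups were tight, and the highest VprBP sh sample was far below the lowest Control sh sample. The fall from 2876 ± 73.5 to 462 ± 38.5 (SD, n = 3 each) was the largest decrease among the 9 annexins, with a log2 fold change of -2.64 ± 0.09 (SE), 6.24-fold lower (edgeR adjusted p = 1.07e-08). No 50-base word of its canonical transcript occurs in another gene.

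ANXA4 (ENSG00000196975.16, chromosome 2, 69644425 to 69827112, plus strand, 13 exons) encodes an annexin abundant in epithelia that self-associates on membranes. Its normalized counts were 677, 783 and 750 in Control sh versus 1287, 1502 and 1531 in VprBP sh, with every VprBP sh sample above every Control sh sample. The means were 737 ± 54.2 and 1440 ± 133 (SD, n = 3 each), and the log2 fold change of 0.97 ± 0.10 (SE), 1.96-fold, fell just short of the fold threshold although its adjusted p was 1.96e-05 (edgeR). It was called with library size alone (1.18), without Control sh replicate 2 (1.01) and without VprBP sh replicate 1 (1.04). The locus overlaps 4 annotated genes, among them the coding gene AAK1 on the opposite strand, and whether the counting used strand is not stated, so reads of overlapping genes may be included.

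ANXA5 (ENSG00000164111.15, chromosome 4, 121667946 to 121696995, minus strand, 13 exons) encodes the annexin with high affinity for phosphatidylserine that is widely used to label dying cells. It measured 3423, 3889 and 3930 normalized counts in Control sh versus 4968, 4681 and 4578 in VprBP sh. The groups did not overlap, but the gap between them was small. The means of 3747 ± 282 and 4743 ± 202 (SD, n = 3 each) differed by a log2 fold change of 0.34 ± 0.08 (SE), 1.27-fold (edgeR adjusted p = 0.00455), which is under the fold threshold. Its 95% interval ran from 0.17 to 0.51 on the log2 scale.

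ANXA6 (ENSG00000197043.14, chromosome 5, 151100706 to 151157785 in the deposited table, minus strand, 26 exons) encodes the largest annexin, in which the core is present as a pair, and which is known for scaffolding at the plasma membrane and on cholesterol-rich endosomes. It was at 429, 387 and 363 normalized counts in Control sh versus 1072, 1357 and 1411 in VprBP sh. The VprBP sh samples were all higher, with replicate 1 the lowest of them. ANXA6 rose from 393 ± 33.3 to 1280 ± 182 (SD, n = 3 each), with a log2 fold change of 1.71 ± 0.13 (SE), 3.26-fold (edgeR adjusted p = 1.75e-06).

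ANXA9 (ENSG00000143412.10, chromosome 1, 150982249 to 150995634, plus strand, 14 exons) encodes an atypical annexin whose core has lost calcium-coordinating residues. Per kilobase of the canonical transcript it had the lowest level of the 9 in both groups, whereas with all annotated exons as the length ANXA3 was lower in VprBP sh (94.3 against 128 for ANXA9). ANXA9 had 23, 22 and 43 counts in Control sh libraries against 194, 183 and 265 in VprBP sh libraries. On the normalized scale these were 26.7, 23.9 and 40.8 against 217, 190.2 and 203, and the groups were far apart. ANXA9 rose from 30.4 ± 9.04 to 203 ± 13.2 (SD, n = 3 each), with the largest increase of the family at a log2 fold change of 2.72 ± 0.22 (SE), 6.59-fold (edgeR adjusted p = 2.86e-06). Compared over the 6 samples by the root mean square difference of log2(normalized count + 1) from the Control sh mean, the nearest of 16755 tested genes were TLR1 (0.079), a Toll-like receptor, ZFAND2A (0.101) and MPC1 (0.133), a subunit of the mitochondrial pyruvate carrier. TLR1 had only 10, 9 and 20 counts in Control sh libraries. This measure largely follows the fold change, and the log2 fold changes were 2.69 for TLR1, 2.77 for ZFAND2A and 2.72 for MPC1.

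ANXA7 (ENSG00000138279.16, chromosome 10, 73375101 to 73414076, minus strand, 13 exons) and ANXA11 carry long N-terminal tails that bind PDCD6 and SRI. ANXA7, or synexin, studied in exocytosis, had 2201, 2532 and 2562 normalized counts in Control sh versus 2792, 2525 and 2586 in VprBP sh. The groups overlapped, with the lowest VprBP sh sample beneath 2 of the Control sh samples. Its log2 fold change was 0.12 ± 0.09 (SE, edgeR adjusted p = 0.257), with a 95% interval of -0.06 to 0.29, so a change of 2-fold lay outside the interval. Only with library size alone among 14 alternatives did it reach an adjusted p under 0.05 (0.33, edgeR adjusted p = 0.00901), and with DESeq2 the sign turned (-0.0057).

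ANXA11 (ENSG00000122359.18, chromosome 10, 80150889 to 80205572, minus strand, 16 exons) encodes an annexin known to tether RNA granules to lysosomes. Its normalized counts were 6169, 5906 and 5770 in Control sh versus 2503, 3477 and 3377 in VprBP sh. Every VprBP sh sample was lower, replicate 1 most of all. The means of 5948 ± 203 and 3119 ± 536 (SD, n = 3 each) gave a log2 fold change of -0.93 ± 0.12 (SE), 1.91-fold lower (edgeR adjusted p = 7.39e-05), short of the fold threshold. It was called with TMM factors (-1.03), with DESeq2 (-1.05), with replicates 2 and 3 summed (-1.03) and without VprBP sh replicate 2 (-1.02). Of the partners of this tail, SRI was called lower (log2 fold change -1.54 ± 0.10 SE, edgeR adjusted p = 6.45e-07), and PDCD6 was at -0.77 ± 0.08 (SE) and not called.

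**Figure D2:**
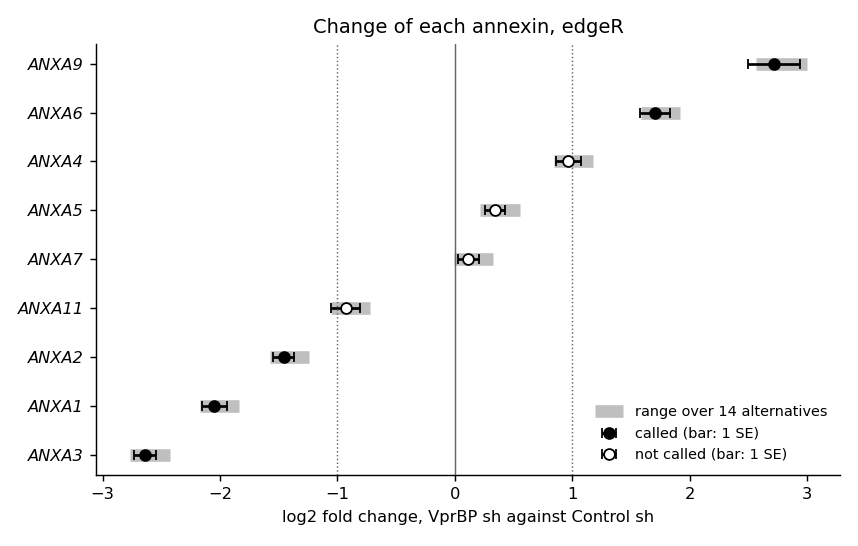
log2 fold change of each annexin in VprBP sh against Control sh (points, with bars of 1 SE, n = 3 against 3) over the range from 14 alternative analyses (grey bars), with dotted lines at 2-fold. ANXA3 (-2.64), ANXA1 (-2.05) and ANXA2 (-1.46) lie on the lower side and ANXA6 (1.71) and ANXA9 (2.72) on the higher side with their grey bars beyond the dotted lines, while those of ANXA4 and ANXA11 cross a dotted line.

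VprBP sh replicate 1, where DCAF1 was 1.54 times the mean of replicates 2 and 3, was compared in the same way for the annexins. There ANXA1 was 1.17 times, ANXA3 1.13 times, ANXA9 1.10 times, ANXA7 1.09 times and ANXA5 1.07 times the mean of replicates 2 and 3. ANXA11 was at 0.730, ANXA6 at 0.774, ANXA4 at 0.849 and ANXA2 at 0.856 of it. In Control sh the same ratio for replicate 1 ran from 0.824 for ANXA9 to 1.19 for ANXA1, and DCAF1 was at 0.882. In VprBP sh replicate 1 each of the 5 called annexins lay outside the Control sh range. This follows from groups that do not overlap, as in 79.5% of all genes tested, and is no separate result. Without this replicate the log2 fold change was -2.13 for ANXA1, -1.39 for ANXA2 and 1.82 for ANXA6, and DCAF1 was at -0.82.

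The order of levels among the 9 annexins was compared on a per-length scale, as normalized counts per kilobase of the canonical transcript. ANXA8 was not among them, although its mean of 8965 normalized counts in Control sh was above the 3747 of ANXA5. Its place in the order was not determined. In Control sh, ANXA2 led at 21600 ± 762, followed by ANXA1 at 8184 ± 845, ANXA5 at 2288 ± 172, ANXA3 at 2009 ± 51.3, ANXA7 at 995 ± 81.9, ANXA11 at 883 ± 30.1, ANXA4 at 278 ± 20.4, ANXA6 at 136 ± 11.5 and ANXA9 at 19.6 ± 5.83 (SD, n = 3 each). Only ANXA7 and ANXA11 among neighbours in this order overlapped, and ANXA5 and ANXA3 were separated by a narrow margin (lowest ANXA5 sample 2090, highest ANXA3 sample 2066). In VprBP sh, ANXA2 remained first at 7867 ± 698, but ANXA5 at 2895 ± 124 was now above ANXA1 at 1975 ± 186, and ANXA3 at 322 ± 26.9 dropped to the eighth place. ANXA7 at 1078 ± 57.3 came between ANXA1 and a trio, ANXA4 at 543 ± 50.1, ANXA11 at 463 ± 79.5 and ANXA6 at 443 ± 63.1, whose neighbours overlapped, and ANXA9 was last at 131 ± 8.53.

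As shares of the summed per-kilobase level of the 9, ANXA2 made up 57.2, 60.4 and 60.5% in the Control sh samples. In those of VprBP sh it made up 46.7, 51.3 and 51.9%. ANXA1 made up a mean of 22.5% ± 2.36 in Control sh and 12.6% ± 1.58 in VprBP sh. ANXA5, whose own level changed little, took 6.29% ± 0.459 and 18.5% ± 1.41 (SD, n = 3 each). ANXA7 went from 2.73% to 6.87%, ANXA4 from 0.763% to 3.45%, ANXA6 from 0.374% to 2.81% and ANXA3 from 5.52% to 2.06%. These shares depend on the length used. With all annotated exons in place of the canonical transcript, ANXA2 made up 30.7 to 32.8% in Control sh and overlapped ANXA1 at 26.7 to 31.7%, and ANXA5 made up 14.2% ± 1.12. On that scale ANXA5 led in VprBP sh at 31.4% ± 1.46 against 20.4% ± 1.75 for ANXA2 (SD, n = 3 each). The sum of the 9 annexins in normalized counts was 60959, 60912 and 61715 in Control sh versus 27390, 29409 and 29817 in VprBP sh. These sums, 61195 ± 451 and 28872 ± 1299 (SD, n = 3 each), stand in a ratio of 2.12. The log2 difference of the sum was -1.08 with ANXA2 and -0.73 without it.

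**Figure D3:**
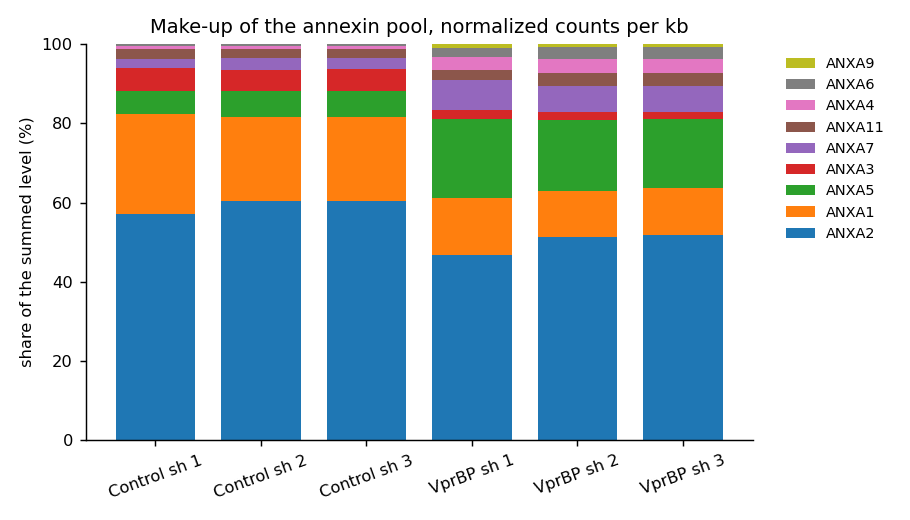
Share of each annexin in the summed normalized counts per kilobase of canonical transcript, as stacked bars for each of the 6 samples (percent axis from 0 to 100). ANXA2 is the largest block in every bar, and the ANXA5 block widens from a mean of 6.29% in Control sh to 18.5% in VprBP sh while that of ANXA1 narrows from 22.5% to 12.6%.

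Ratios between annexins in the same library do not depend on the scaling between libraries. ANXA5 counts were 10.6, 11.5 and 11.4% of ANXA2 counts in Control sh versus 45.2, 37.0 and 35.1% in VprBP sh, a ratio of means of 3.51. ANXA6 counts were 1.33, 1.14 and 1.05% of ANXA2 counts in Control sh versus 9.75, 10.7 and 10.8% in VprBP sh. ANXA5 was below ANXA1 in every Control sh sample (26.7, 36.5 and 36.1% of its counts) and above it in every VprBP sh sample (162, 183 and 171%). In none of these 3 ratios did the groups overlap. This follows from the values above, since both genes of each ratio moved in opposite directions without overlap between the groups.

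Among 7 further genes with ANXA symbols, 5 were tested. ANXA8, an annexin of stratified epithelia, was at 8708, 9023 and 9165 normalized counts in Control sh versus 4657, 3697 and 3792 in VprBP sh, and its near-identical copy ANXA8L1 was at 4486, 4630 and 4930 and at 3003, 2471 and 2527. Since 83.2% of the 50-base words of ANXA8 and 86.8% of those of ANXA8L1 are shared with other genes, chiefly each other, the split between them is uncertain. Summed, the pair fell from 13647 ± 451 to 6716 ± 822 (SD, n = 3 each), a ratio of 2.03, and on their own ANXA8 was called (log2 fold change -1.15 ± 0.10 SE) and ANXA8L1 was not (-0.81 ± 0.10 SE). ANXA10, an annexin known from the stomach, had 131, 177 and 142 counts in Control sh and 0 in every VprBP sh library, at least 54.6-fold lower when the limit that a count of 0 allows, 3 counts in each library, was put in place of 0, and it was called. ANXA13, of intestine and kidney, was not tested, and its 12, 9 and 20 counts in Control sh against 0 in every VprBP sh library put it at least 4.87-fold lower. Of the ANXA2-related genes, the pseudogene ANXA2P2 was called lower (log2 fold change -1.37 ± 0.20 SE, edgeR adjusted p = 0.000161), ANXA2R was at 0.45 ± 0.34 (SE, edgeR adjusted p = 0.249) and not called, and ANXA2P1, with 4 to 9 counts per library, was not tested. These limits cover counting error only.

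The genes that work with annexins were read through 5 lists, chosen with earlier results of these data known. In them 73 genes were tested and 35 called, 10 higher and 25 lower. The total share was near the 46.4% called over all genes tested. The split by direction was not, since over all genes 24.5% were called higher and 22.0% lower. Each list is described by its count and its median beside the median of 0.08 of all genes tested. Of the protein partners, 12 were tested, 1 was called higher and 4 lower and 7 were not called, with a median log2 fold change of -0.70. The 4 that fell were S100A10, S100A11, SRI and AHNAK (-1.31 ± 0.15 SE, edgeR adjusted p = 2.86e-05), a scaffold that binds the ANXA2-S100A10 complex. S100A4, the metastasis-associated EF-hand protein, rose, with 136 to 163 normalized counts across Control sh samples and 5016 to 7149 across VprBP sh samples (5.30 ± 0.17 SE, edgeR adjusted p = 5.53e-09). S100A6, a partner of several annexins, was at 6192 to 7402 and at 3437 to 6230 normalized counts and was not called (-0.64 ± 0.21 SE, edgeR adjusted p = 0.0191).

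Of the ANXA1 receptors and eicosanoid enzymes, 7 were tested, 1 was called higher and 4 lower, beside 46.4% called over all genes, and the median was -2.12. The receptors FPR1, FPR2 and FPR3 had no entry in the deposited count table. PLA2G4A, the cytosolic phospholipase A2 that releases arachidonic acid, was at 284, 416 and 530 counts in Control sh and at 0 in every VprBP sh library, at least 146-fold lower. PTGS2, the inducible cyclooxygenase, was likewise at 0 in every VprBP sh library, at least 97.7-fold lower. PTGS1, the constitutive cyclooxygenase, fell by 2.12 ± 0.08 (SE) on the log2 scale (edgeR adjusted p = 1.30e-08), and PTGES, which makes prostaglandin E2, fell by 2.57 ± 0.19 (SE, edgeR adjusted p = 1.24e-06). The gene that rose was PLA2G2A, a secreted phospholipase A2, with 1, 0 and 0 counts in Control sh versus 618, 859 and 1168 in VprBP sh, a ratio of 2373 with a 95% counting interval of 426 to 93768.

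Of the genes for exposure and uptake of phosphatidylserine, the lipid that ANXA5 binds, 14 were tested. Among these 1 was called higher and 8 lower, beside 46.4% called over all genes, with a median of -1.25. The uptake receptors made up 3 of the 8, with AXL at 11532, 13923 and 15916 counts in Control sh versus 2, 0 and 3 in VprBP sh, a ratio of 9222 (95% counting interval 3952 to 28404). MERTK fell by 3.84 ± 0.17 (SE) on the log2 scale (edgeR adjusted p = 5.10e-08), TYRO3 by 1.16 ± 0.14 (SE, edgeR adjusted p = 3.25e-05), and GAS6, the ligand that bridges these receptors to phosphatidylserine, by 3.70 ± 0.09 (SE, edgeR adjusted p = 1.42e-09). Others that fell included ATP11B (-1.39 ± 0.08 SE), PLSCR1 (-1.39 ± 0.17 SE) and PLSCR3 (-1.34 ± 0.14 SE). PLSCR4 rose (1.31 ± 0.12 SE, edgeR adjusted p = 5.48e-06).

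Of 21 membrane repair genes tested, 4 were called higher and 5 lower, near the 46.4% called over all genes, with a median of -0.16. EHD2, an ATPase of caveolar necks, went from 10935 to 11908 normalized counts across Control sh samples to 56.9 to 144 across VprBP sh samples (-6.67 ± 0.27 SE, edgeR adjusted p = 2.50e-08), and EHD4 (-1.81 ± 0.08 SE), CAPN1, the calpain large subunit (-1.05 ± 0.11 SE), and CHMP4C, of the ESCRT-III filament (-1.15 ± 0.12 SE), were also called lower. Those called higher were SYT7, the calcium sensor of lysosome exocytosis (1.67 ± 0.16 SE), CHMP4A (1.48 ± 0.10 SE), VAMP7 (1.37 ± 0.17 SE) and SMPD1, acid sphingomyelinase (1.06 ± 0.20 SE). MYOF, the ferlin myoferlin, was at -0.22 ± 0.07 (SE) and not called. Of 19 calcium entry, release and pumping genes tested, 3 were called higher and 4 lower, a smaller share than the 46.4% called over all genes, with a median of -0.13. The channels TRPV4 (-6.46 ± 0.32 SE) and TRPC1 (-6.28 ± 0.37 SE) and the pumps ATP2B4 (-1.89 ± 0.08 SE) and ATP2A2 (-1.56 ± 0.07 SE) were called lower. The pump ATP2A3 (6.44 ± 0.51 SE) and the channels ITPR1 (1.69 ± 0.26 SE) and PIEZO1 (1.16 ± 0.12 SE) were called higher. The sizes for TRPV4, TRPC1 and ATP2A3 rest on few counts in the lower group. TRPV4 had 1, 8 and 7 and TRPC1 0, 4 and 8 counts in VprBP sh, and ATP2A3 had 8, 1 and 6 in Control sh.

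**Figure D4:**
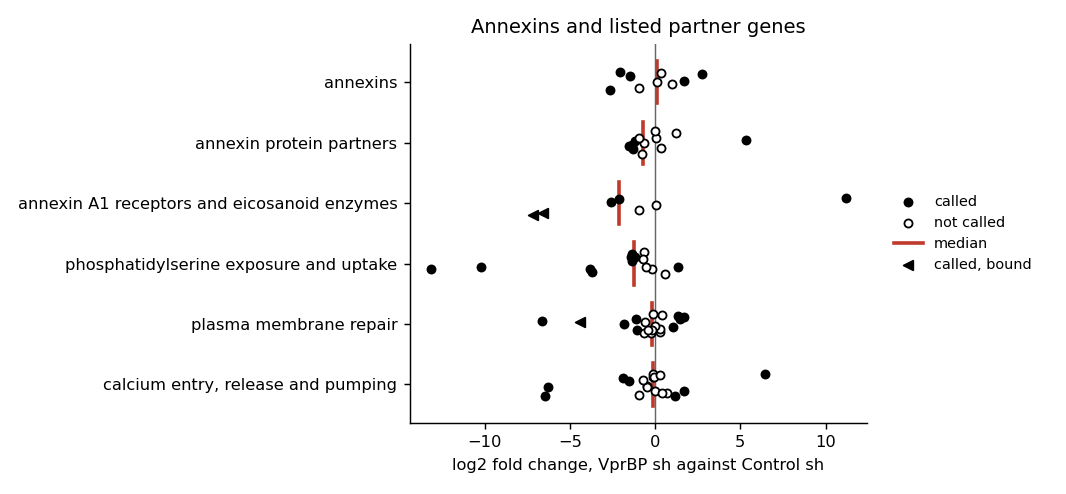
log2 fold change in VprBP sh against Control sh of the annexins and of the tested genes of each list, with filled points for called genes, open points for genes not called, triangles for genes at 0 throughout 1 group (drawn at their lower bound), count ratios for genes with 1 to 3 counts per library at most, and red lines for medians. The medians run from -2.12 for the ANXA1 receptors and eicosanoid enzymes to 0.12 for the annexins, and each group spans both directions.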

How the data were processed

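RNA-seq (1 × 50 single-end reads per the study's methods) was analysed for 6 samples, grouped by their labels into Control sh and VprBP sh, 3 each. The authors aligned reads to hg38 with STAR, quantified genes with Partek Flow, and deposited these estimated counts neither normalized nor pooled, of which 59.9% were whole (within 1e-06), and each gene has a sum of at least 10. The labels name a SMARTER kit and the methods a strand-specific KAPA kit, and whether counting used strand is not given in the sources used here.

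Counts were rounded, scaled by upper quartile factors (0.75) and tested with edgeR 4.0.16 (R 4.3.3) by the quasi-likelihood test after filterByExpr (minimum count 10), with Benjamini-Hochberg adjustment over 16756 genes. The biological coefficient of variation was 0.126. Genes were called at an adjusted p under 0.05 and a fold change over 2. The SE of a log2 fold change is its size over the root of F, and 95% intervals are 1.96 SE. Normalized counts are counts divided by effective library size relative to its mean. Ratios with 1 to 3 counts carry exact Clopper-Pearson intervals, which cover counting error only. The steps were tested on simulated data in which far fewer genes changed than here. The scaling was therefore not tested under a change this broad. Lengths, overlaps and shared words of 50 bases came from GENCODE 44, whose start and end match the deposited table for every annexin member except the end of ANXA6, and promoter windows from RefSeq GRCh38.p14, where all 9 members matched.

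The named genes were the 9 annexins, the other ANXA genes, DCAF1, list genes whose higher group averaged 100 normalized counts or more, and the 3 genes nearest in pattern to the called annexin with the largest change. Marker genes given to check the labels were named after their values were seen. A result on a listed gene is not reported here. The members and lists were chosen with earlier results of these data known. Alternatives were TMM factors, library size alone, DESeq2 1.42.0, limma 3.58.1 (voom), other filters, glmTreat, a replicate block, replicates 2 and 3 summed, and each replicate left out.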

Additional observations from a re-analysis of the deposited data

How the results depend on the processing

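The number of annexins called was 5 or 6 under all 15 alternatives, and of list genes 26 to 38. Of 126 refits of single annexins (14 for each), 118 kept direction and side of the threshold. The sign turned once, for ANXA7 with DESeq2 (-0.0057, adjusted p = 0.961), and the other changes were ANXA4 and ANXA11 passing 2-fold, as given above. The summed annexin counts, -1.08 on the log2 scale, were -1.18 with TMM factors, -0.87 with library size alone, -1.21 with DESeq2 and -0.73 without ANXA2. These scalings moved the median of all genes from 0.08 to -0.01, 0.29 and -0.04. The fall of DCAF1 lost significance with library size alone (-0.37, edgeR adjusted p = 0.0851) and with replicates 2 and 3 summed (-0.46, edgeR adjusted p = 0.0839), and the cause was not tested. Over all genes, 7778 of 16756 were called, but 4690 of 13103 with at least 10 counts required in every sample, which tests fewer genes.

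Samples with the same replicate number did not deviate together (r = -0.17, -0.05 and -0.12 over 12133 genes), so the numbers are not taken as a pairing, and no sample was closest to its own number. With the replicate block 5 annexins and 36 list genes were called, and DCAF1 was at -0.60 (edgeR adjusted p = 0.0274). Replicates 2 and 3 of each group were much closer to each other (chi-square per degree of freedom 2.50 and 2.36) than to replicate 1 (17.6 to 29.1), yet differed by more than sampling noise. The log2 fold change of ANXA9, with 22 to 43 counts in Control sh, was 2.72 and 3.00 without Control sh replicate 3.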
